A study of Rattus norvegicus with 24 samples.

Results

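Connexins, the subunits of gap junction channels, were followed through the retina and the brain of the rat. For the retina, the groups were its microvessels (RMVs) and its tissue (RT). For the brain, they were its microvessels (BMVs) and the tissue left after the dissection described below (BT), which is not whole brain. The list held 7 genes chosen by symbol: the vascular connexins Gja4 (Cx37), Gja5 (Cx40) and Gjc1 (Cx45), the glial connexins Gja1 (Cx43), Gjb6 (Cx30) and Gjb2 (Cx26), and the neuronal connexin Gjd2 (Cx36). Of these, 6 were measured among 18166 genes in all, and Gjc1 was not analysed here because the annotation used pairs no transcript cluster with that symbol alone. Where a gene had several transcript clusters, the probe groups of the array, its cluster of highest mean signal was taken.

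All samples came from 6 male Wistar rats aged 12 weeks, with no treatment or altered genotype given in the labels, with 6 Affymetrix Rat Gene 2.0 ST arrays per group and 24 in all. Per the paper, white matter, choroid plexus, meninges and superficial vessels were first removed from the brains. Frozen eyes, and not isolated retinas, and frozen brain hemispheres were then cryosectioned. A section was kept for RNA of what the paper calls total retina tissue (RT), and a few sections of the hemisphere for BT. The other sections were homogenized, spun on a density gradient and caught on a nylon mesh as RMVs and BMVs. RMVs and BMVs are therefore mechanical enrichments of vessel fragments with whatever adheres to them, and not sorted cells.

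Connexins assemble by sixes into hemichannels, and hemichannels of adjacent cells dock to form channels for ions and small molecules. In vessel walls, Cx37 and Cx40 couple endothelial cells, mainly of arteries and arterioles, and carry vasomotor signals along the vessel. Cx43 and Cx30 couple astrocytes into networks whose endfeet surround brain capillaries, and Cx43 is also made by vascular cells and pigment epithelium. Cx36 builds the electrical synapses of neurons and is well known from the retina, where it joins AII amacrine cells with each other and with bipolar cells.

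The stretch upstream of the transcription start is shown for the members whose annotated start lies outside the span of their own gene, since these promoters belong to both vascular members measured and to the neuronal member. Each holds the 250 bases before the start in RefSeq, build GRCr8, read along the gene's strand. Capitals mark the GC box GGGCGG and the TATA box TATAAA on either strand.
Gja4, chr5:144920325-144920574, minus strand: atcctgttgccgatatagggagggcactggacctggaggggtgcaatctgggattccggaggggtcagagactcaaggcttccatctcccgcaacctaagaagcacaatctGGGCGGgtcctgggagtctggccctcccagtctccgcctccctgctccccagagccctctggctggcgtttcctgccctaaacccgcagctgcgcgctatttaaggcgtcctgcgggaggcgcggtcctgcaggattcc
Gja5, chr2:187290977-187291226, plus strand: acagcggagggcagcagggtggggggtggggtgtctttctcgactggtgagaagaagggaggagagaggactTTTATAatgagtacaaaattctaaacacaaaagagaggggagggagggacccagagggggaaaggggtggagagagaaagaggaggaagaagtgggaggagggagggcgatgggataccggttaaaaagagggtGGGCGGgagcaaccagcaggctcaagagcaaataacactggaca
Gjd2, chr3:121229368-121229617, minus strand: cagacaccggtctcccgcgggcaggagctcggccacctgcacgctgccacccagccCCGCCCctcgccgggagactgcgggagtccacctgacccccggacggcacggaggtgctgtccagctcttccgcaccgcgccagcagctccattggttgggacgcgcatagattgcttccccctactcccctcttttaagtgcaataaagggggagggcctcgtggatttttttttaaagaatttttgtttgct
All 3 windows hold a GC box, which 30.5% of the 33469 windows of the same length over all genes hold. The TATA letters occur in the Gja5 window, on the strand opposite to the gene, and in 12.9% of all windows. The ETS core CCGGAA, which 12.6% of all windows hold on either strand, occurs in the Gja4 window, and the CCAAT box, which 34.0% hold, in the Gjd2 window. Such matches describe letters and no binding. The starts used for Gja1, Gjb2 and Gjb6 lie inside the annotated span of the gene, so their windows are not shown. Gjb2 and Gjb6 are next to each other among the protein-coding genes of chromosome 15.

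Signals are given as the deposited log2 values, so that a difference of 1 is 2-fold. A gene counted as higher or lower when limma gave a change of 1 or more in size and an adjusted p under 0.05 over all 18166 genes. Values of different genes were not set against each other, since probes differ in brightness. Summed signals of marker lists add unlogged values, so the brightest genes dominate them. Array medians over all clusters lay between 6.76 and 6.83 in RMVs, 6.10 and 6.22 in RT, 6.48 and 6.55 in BMVs, and 5.81 and 5.95 in BT. Over all genes the median change was 0.33 for RMVs over RT and 0.30 for BMVs over BT, so values after quantile normalization are given for the connexins and pannexins where they moved a call or a sign. All 10 measured endothelial and all 9 pericyte markers were higher in microvessels of both organs, with medians of 3.98 and 3.52 in the retina and 4.04 and 3.58 in the brain. Of 10 markers of retinal neurons, 7 were higher in RT than in BT, such as Gnat1 of rod photoreceptors with 9.85.

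One retinal array stood apart. In RT replicate 5, 36 genes were over 1 above all other RT arrays, against 0 to 2 genes for each of the others. Of 10 markers of the retinal pigment epithelium (RPE), 9 were highest in this array among RT arrays and 6 of them by over 1, such as Rpe65, the visual cycle isomerase, with 9.57 against 6.46 to 7.37. RMV replicate 5 also had the highest summed RPE signal of the RMVs, 12.04 against 10.31 to 10.97, and the lowest summed endothelial signal, 14.54 against 14.76 to 15.07. Among the 6 connexins, Gja1 was the only one with its highest RT value in RT replicate 5, and its results are given with and without that array.

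In the comparison of RMVs with RT, Gja4, Gja1 and Gja5 were higher in RMVs and no measured connexin was lower. This is 3 of 6 members higher, where 10.3% of all genes were higher and 0.947% lower. Among the 3 members in neither class, Gjb2 changed by 0.91, Gjb6 by 0.58 and Gjd2 by -0.23. After quantile normalization Gja5 left the higher class, with 0.56, and over all genes 933 were higher and 918 lower, against 1873 higher and 172 lower on the deposited scale. In the comparison of BMVs with BT, Gja4 and Gja5 were higher and Gjb6 was lower, where 16.3% of all genes were higher and 10.5% lower. After quantile normalization Gjd2 was lower too, with -1.03, and over all genes 1800 were higher and 2444 lower, against 2969 higher and 1903 lower on the deposited scale.

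**Figure D1:**
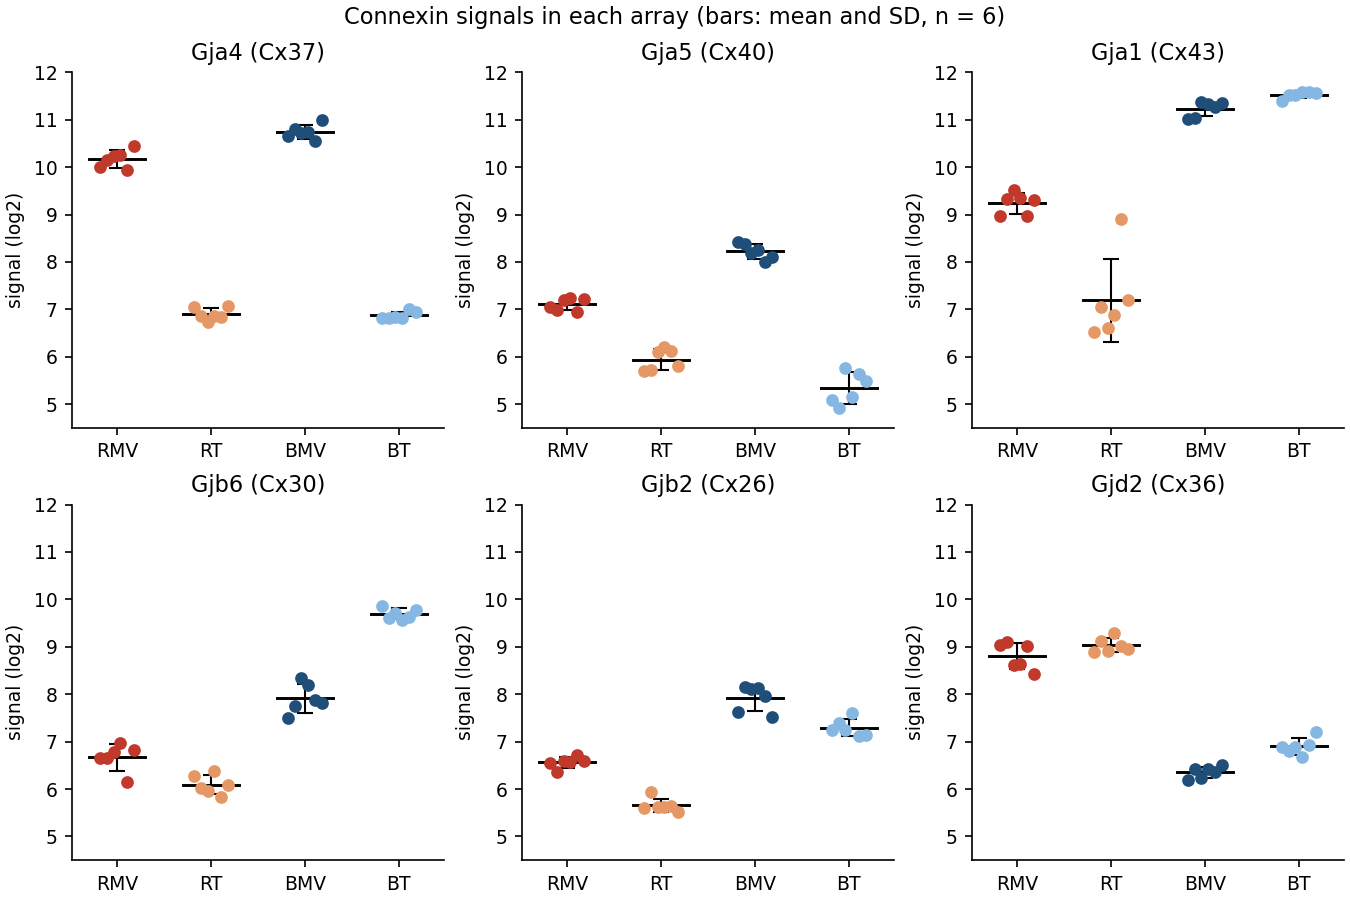
Signal (log2) of the 6 measured connexins in each of the 24 arrays, by group, with mean and SD (n = 6). Gja4 lies at 9.93 or more in all microvessel arrays and at 7.07 or less in all tissue arrays, Gja1 in RT replicate 5 lies apart at 8.90, and Gjd2 is high in both retinal groups.

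The vascular connexins were the members with the largest change in BMVs over BT. Gja4 had its lowest signal at 9.93, its median at 10.19 and its highest at 10.44 in RMVs, against 6.74, 6.86 and 7.07 in RT. In BMVs the same values were 10.56, 10.72 and 10.99, against 6.81, 6.83 and 7.01 in BT. All microvessel arrays were far above all tissue arrays, and the BMVs lay above the RMVs without overlap. The log2 fold change of Gja4 was 3.27 ± 0.08 (SE) in RMVs over RT, or 9.61-fold (adjusted p = 1.21e-21 by limma), and 3.87 ± 0.08 in BMVs over BT, or 14.6-fold (adjusted p = 2.22e-23). In retina it was 3.125 after quantile normalization, 2.622 after centring on array medians and 2.335 after centring on reference genes. In brain these values were 3.456, 3.261 and 3.269.
Both tissues gave nearly the same Gja4 signal, with 6.90 ± 0.13 in RT and 6.87 ± 0.08 in BT (SD, n = 6), a difference of 0.03 with a 95% interval of -0.14 to 0.20 (adjusted p = 0.727). After quantile normalization this difference was -0.10. RMVs were 0.57 below BMVs (95% interval of the change -0.74 to -0.40, adjusted p = 1.10e-06), which is under the 2-fold threshold. The order of Gja4 was thus BMVs, RMVs, and then RT and BT, which overlapped.

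Gja5, a connexin of arterial endothelium, was higher in microvessels of both organs on the deposited scale, but to different degrees. In RMVs its lowest, median and highest signals were 6.95, 7.12 and 7.24, against 5.69, 5.96 and 6.20 in RT. In BMVs they were 7.99, 8.22 and 8.42, against 4.92, 5.32 and 5.76 in BT. Microvessel and tissue arrays did not overlap in either organ. The change was 1.16 ± 0.12 (SE) in RMVs over RT, or 2.24-fold (adjusted p = 4.64e-09), and 2.88 ± 0.12 in BMVs over BT, or 7.36-fold (adjusted p = 1.02e-17).
The enrichment in retina was smaller by 1.72 than that in brain (95% interval of the difference -2.08 to -1.36, adjusted p = 2.93e-09), and by the same 1.72 after quantile normalization. This difference has 2 sides: Gja5 was 1.12 lower in RMVs than in BMVs (adjusted p = 1.01e-08), and RT was 0.60 above BT (adjusted p = 0.000104), with overlapping tissue arrays and under 2-fold. The retinal enrichment itself depended on the scaling. It was 0.56 after quantile normalization (adjusted p = 0.000189), 0.52 after centring on array medians (adjusted p = 0.00027) and 0.23 after centring on reference genes (adjusted p = 0.113). For Gja4 the enrichments differed by -0.61 (adjusted p = 7.66e-05), under 2-fold.

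In RMVs over BMVs, markers of vascular cells had medians below 0, and the changes of both vascular connexins were below 0 too. The medians were -0.88 for 10 endothelial, -0.95 for 9 arterial, -0.82 for 8 smooth muscle and -0.62 for 9 pericyte markers. Of these, 3, 2, 2 and 2 were lower and none higher, where 5.25% of all genes were lower. For the difference in enrichment between retina and brain, the medians were -0.27 for endothelial, -0.79 for arterial, -0.93 for smooth muscle and -0.04 for pericyte markers. Markers of meningeal and perivascular fibroblasts had larger shifts, with a median of -2.63 in RMVs over BMVs (8 of 10 lower) and of -2.58 for the difference in enrichment (7 of 10 lower). Lists of other cells went both ways in RMVs over BMVs, with medians from -2.12 for oligodendrocytes to 3.42 for retinal neurons. In bulk RNA, fewer cells of a type and less RNA per cell cannot be told apart, and the part of these shifts in the results of Gja4 and Gja5 was not tested.

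**Figure D2:**
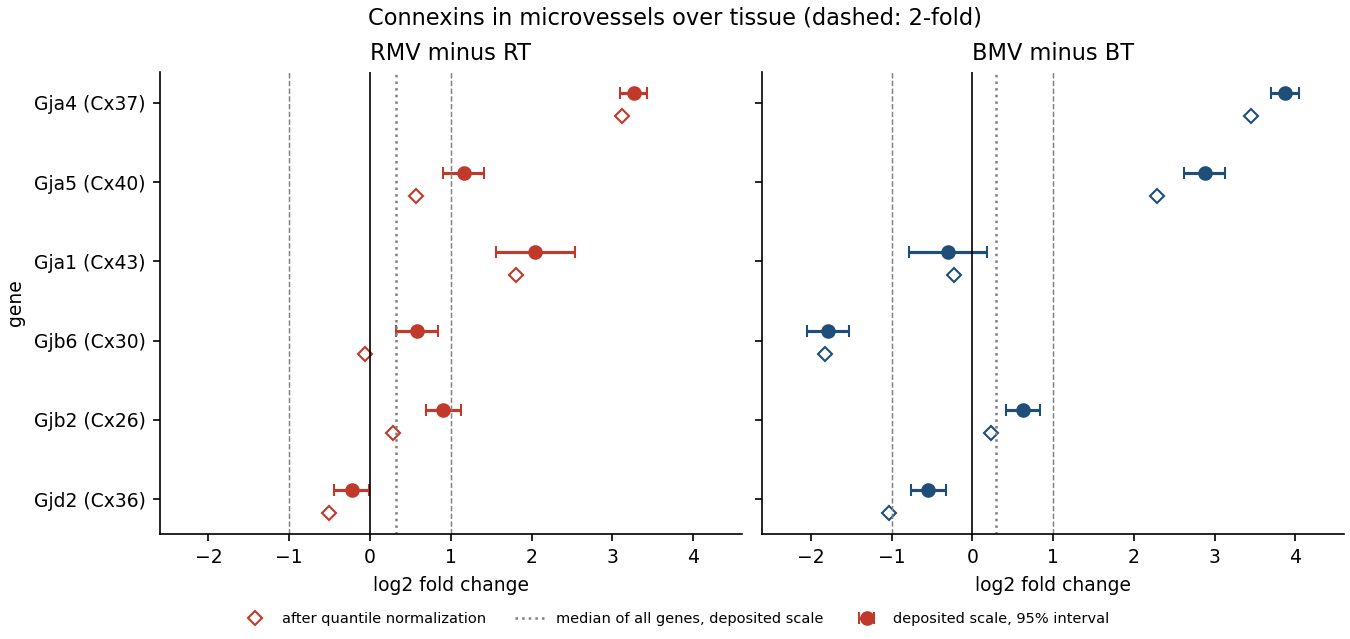
Log2 fold change of each connexin in RMVs over RT (left) and BMVs over BT (right), on the deposited scale with 95% intervals (filled) and after quantile normalization (open), with dashed lines at 2-fold and a dotted line at the median of all genes. On both scales shown Gja4 stays above 3 in both organs, Gja5 in retina moves below 1 after quantile normalization, and Gja1 and Gjb6 differ between the organs.

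Gja1 differed more between RT and BT than any other member. Its lowest, median and highest signals were 8.96, 9.31 and 9.51 in RMVs, against 6.53, 6.96 and 8.90 in RT. In BMVs they were 11.02, 11.30 and 11.37, against 11.40, 11.55 and 11.58 in BT. The order was BT, BMVs, RMVs and RT, and no neighbouring groups overlapped, although RT replicate 5, at 8.90, came close to the lowest RMV array, at 8.96. In RMVs the mean was 9.24 ± 0.22 (SD), against 7.19 ± 0.87 in RT (n = 6 each), a change of 2.05 ± 0.24 (SE), or 4.13-fold (adjusted p = 2.35e-08). Without RT replicate 5 the change was 2.39 (adjusted p = 1.04e-15). Without either retinal array numbered 5, a setting chosen after seeing the data, it was 2.44. The scalings gave smaller changes: 1.807 after quantile normalization, 1.403 after centring on array medians and 1.117 after centring on reference genes. The call of higher was kept under each, with the last value close to 2-fold.
In brain, the mean was 11.23 ± 0.16 in BMVs, against 11.53 ± 0.07 in BT. The change of -0.30 (95% interval -0.79 to 0.19) had an adjusted p of 0.242 with the spread shared by all groups, which includes RT replicate 5. It was 0.00197 when the brain groups were fitted alone and 0.0123 without RT replicate 5, and all BMV arrays were below all BT arrays. The change in brain was -0.23 after quantile normalization (adjusted p = 0.38). It was -0.91 after centring on array medians (adjusted p = 0.00079) and -0.90 after centring on reference genes (adjusted p = 0.00063). The change was under 2-fold in each case. The enrichment in retina exceeded that in brain by 2.35 ± 0.33 (SE, adjusted p = 1.10e-06), and by 2.69 without RT replicate 5.

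Between the organs, Gja1 was lower in RMVs than in BMVs by 1.99 on the log2 scale, or 3.98-fold (adjusted p = 4.39e-08), and lower in RT than in BT by 4.34, or 20.2-fold (adjusted p = 4.31e-15). Without RT replicate 5 the tissue difference was -4.68. In RT replicate 5 the astrocyte filament gene Gfap was also highest, with 8.96 against 7.22 to 8.18 in the other RT arrays. The summed signal of 8 astrocyte markers, 13.78, lay within the range of 13.66 to 13.80 of the others. Bright genes such as Aldoc, with a mean of 12.59 in RT against 7.92 for Gfap, dominate this sum, so it hardly follows Gfap. Of the 8 astrocyte markers, the bicarbonate transporter gene Slc4a4 (7.90 against 7.14 to 7.58) and the growth factor receptor gene Fgfr3 (6.11 against 5.75 to 5.83) were also highest there, and the other 5 were not. The summed signal of fibroblast markers was highest there too, with 11.63 against 10.85 to 11.12. Bright genes such as Ptgds, with a mean of 10.49 in RT, dominate that sum. Single fibroblast markers differed: Slc6a13 was highest there (8.161 against 5.913 to 6.337), while Dcn was lowest there (4.099 against 4.245 to 4.875). RMV replicate 5, with the high RPE signal, had 8.98 for Gja1, which is close to the lowest RMV value. The part of RPE, fibroblasts, astrocytes or other cells in the Gja1 signal of RT replicate 5 was not tested.

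**Figure D3:**
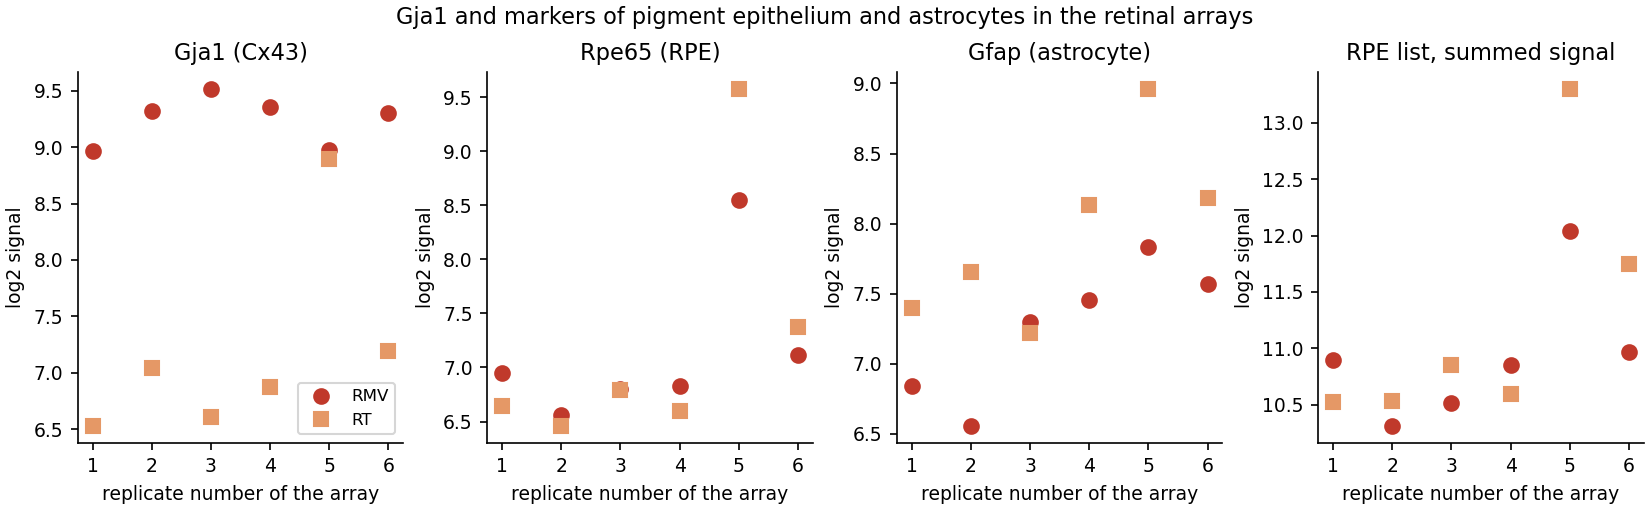
Signals (log2) of Gja1, Rpe65, Gfap and the summed RPE markers in the retinal arrays, by replicate number, for RMVs (circles) and RT (squares). In RT replicate 5 all 4 are highest among RT arrays, and RMV replicate 5 shares the high Rpe65 and RPE sum but not a high Gja1.

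Gjb6, a connexin of astrocytes, fell in BMVs relative to BT. Its lowest, median and highest signals were 7.49, 7.84 and 8.33 in BMVs, against 9.57, 9.67 and 9.86 in BT. In RMVs they were 6.15, 6.72 and 6.98, against 5.83, 6.05 and 6.38 in RT. The brain groups lay far apart, while the retinal groups overlapped. The change in brain was -1.79 ± 0.13 (SE), or 3.45-fold lower in BMVs (adjusted p = 9.65e-13), and it was -1.82 after quantile normalization. In retina it was 0.58 ± 0.13 (adjusted p = 0.000243) on the deposited scale, but -0.06 after quantile normalization, -0.06 after centring on array medians and -0.35 after centring on reference genes, so no direction is given there.
The difference in enrichment, 2.37 ± 0.18 (SE, adjusted p = 1.64e-11), was close in size to that of Gja1 and was 1.76 after quantile normalization. Gjb6 was lower in RMVs than in BMVs by 1.24 on the log2 scale (adjusted p = 4.12e-09) and lower in RT than in BT by 3.61, or 12.2-fold (adjusted p = 3.73e-19).

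Gjb2, known in rodents from the leptomeninges, the cochlea and, less surely, astrocytes, had a different order. Its lowest, median and highest signals were 6.36, 6.58 and 6.72 in RMVs, against 5.51, 5.62 and 5.93 in RT, and 7.53, 8.03 and 8.15 in BMVs, against 7.11, 7.24 and 7.59 in BT. BMVs and BT overlapped, while RMVs and RT did not. The changes of 0.91 in RMVs over RT (adjusted p = 2.08e-08) and 0.63 in BMVs over BT (adjusted p = 4.98e-06) were under 2-fold, and they were 0.28 and 0.23 after quantile normalization, while the retinal change was -0.02 after centring on reference genes. The difference in enrichment was 0.28 (95% interval -0.02 to 0.58, adjusted p = 0.104). Gjb2 was lower in RMVs than in BMVs by 1.35 (adjusted p = 1.41e-11) and lower in RT than in BT by 1.63 on the log2 scale (adjusted p = 1.29e-13).

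All 3 glial connexins were thus lower in retina than in brain, in microvessels and in tissue. In RMVs over BMVs 4 of 6 members were lower (Gja1, Gjb2, Gjb6 and Gja5) and 1 was higher (Gjd2), where 5.25% of all genes were lower and 5.72% higher. Over all genes 884 were higher and 1289 lower in this comparison after quantile normalization, against 1040 higher and 953 lower on the deposited scale. In RT over BT 3 were lower, the glial members, and 1 was higher, again Gjd2, where 11.1% of all genes were lower and 6.29% higher. Of 8 astrocyte markers, 5 were lower and 1, Aldoc, was higher in RMVs than in BMVs. In RT, 5 were lower than in BT and 0 higher, and the medians were -1.27 and -1.34. Markers of Müller glia, the main glia of the retina, had the other direction: of 6 measured, RMVs had 3 higher and 1 lower than BMVs, and RT had 4 higher and 1 lower than BT, with medians of 1.15 and 1.26. Slc1a3 is on both lists, and it was the Müller marker lower in RMVs than in BMVs, with -1.21. The summed signals of the astrocyte markers were 12.50 to 12.87 in RMVs, 13.66 to 13.80 in RT, 13.40 to 13.67 in BMVs and 14.61 to 14.72 in BT. The summed astrocyte signal was thus lower in microvessels than in tissue in both organs, but bright genes such as Aldoc dominate it. Of the 8 markers, 3 were lower in each organ and 5 were in neither class. Single markers went both ways in the retina. Fgfr3 and Sox9 had higher means in RMVs (6.464 and 5.879) than in RT (5.842 and 5.698), and the other markers had lower means. Gja1 was higher in RMVs than in RT. Of 10 markers of meningeal and perivascular fibroblasts, 5 were higher in RMVs than in RT and all 10 higher in BMVs than in BT. The medians were 0.88 and 3.19, where 10.3% and 16.3% of all genes were higher. After quantile normalization, 2 of 10 were higher in the retina (median 0.247) and 9 of 10 in the brain (median 2.763). Between the organs, 8 of these 10 were lower in RMVs than in BMVs, with a median of -2.63, and 3 lower and 1 higher in RT than in BT, with a median of -0.53. The part of these cell types in the glial connexin results was not tested.

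Gjd2 was higher in retina than in brain, in microvessels and in tissue. Its lowest, median and highest signals were 8.42, 8.83 and 9.10 in RMVs, against 8.90, 8.98 and 9.29 in RT, and 6.19, 6.39 and 6.50 in BMVs, against 6.68, 6.89 and 7.21 in BT. The retinal groups overlapped, whereas all BMV arrays were below all BT arrays. Gjd2 was higher in RMVs than in BMVs by 2.45 ± 0.11 (SE), or 5.48-fold (adjusted p = 6.33e-17), and higher in RT than in BT by 2.14 ± 0.11, or 4.39-fold (adjusted p = 5.29e-16). The change was -0.23 in RMVs over RT (95% interval -0.44 to -0.01, adjusted p = 0.0563) and -0.54 in BMVs over BT (adjusted p = 4.27e-05), with a difference in enrichment of 0.32 (95% interval 0.01 to 0.63, adjusted p = 0.0693). Gjd2 was lower in BMVs than in BT past 2-fold under all 3 scalings, with -1.03 after quantile normalization, -1.15 after centring on array medians and -1.15 after centring on reference genes. In RMVs over RT it had -0.51 after quantile normalization and was lower past 2-fold, with -1.16, after centring on reference genes.
Of 10 markers of retinal neurons, 1 was lower in RMVs than in RT, Calb1, with a median of -0.24 for the list. Their summed signals were 14.36 to 14.70 in RMVs and 14.88 to 14.98 in RT, against 9.95 to 10.18 in BMVs and 11.87 to 12.01 in BT. General neuron markers were lower for 4 of 9 in RMVs than in RT and for all 9 in BMVs than in BT, with medians of -0.97 and -2.79. The part of attached neuronal material in the Gjd2 signal of RMVs was not tested.

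**Figure D4:**
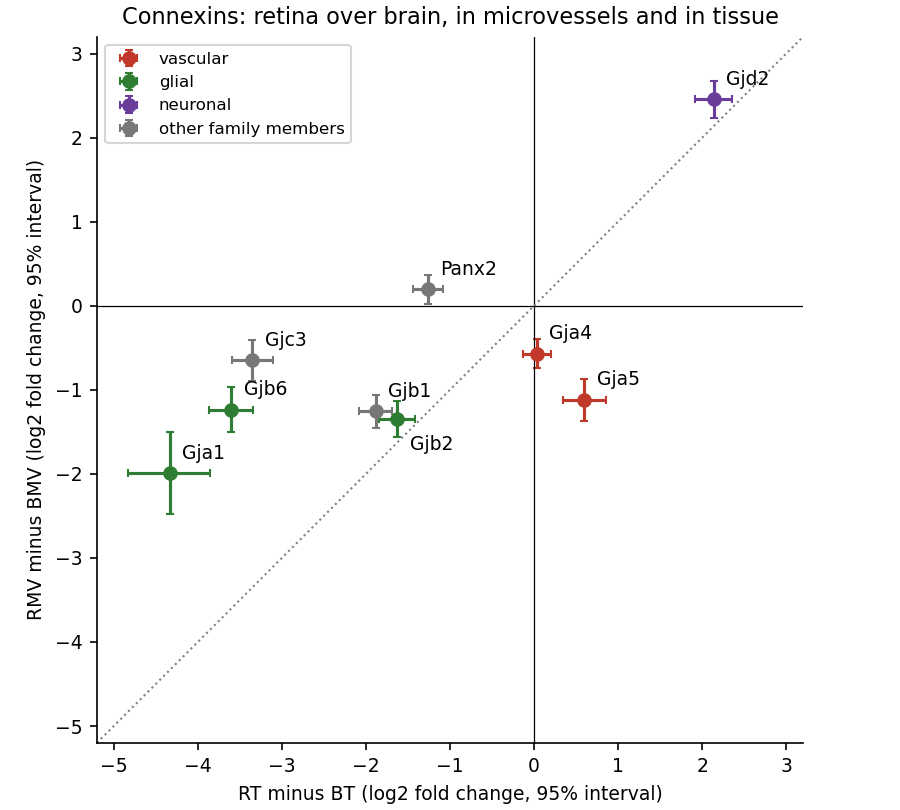
Log2 fold change between retina and brain in microvessels (RMVs over BMVs, vertical) against that in tissue (RT over BT, horizontal), with 95% intervals, for the 6 connexins and for Gjc3, Gjb1 and Panx2. Glial members lie at the lower left, Gjd2 at the upper right, and Gja4 and Gja5 below 0 on the vertical axis with tissue values at or above 0.

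When the difference in enrichment between the organs was tested, the difference was above 0 past the thresholds for Gja1 and Gjb6 and below 0 for Gja5, where 10.4% of all genes were higher and 5.15% lower. The comparisons share arrays, so these values are not independent of those above.

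A further 12 connexins and pannexins were measured. Over RT, 1 of the 12 was higher in RMVs, which is near the 10.3% of all genes. It was Gja6 (Cx33), known in rats from the testis, with 1.06 ± 0.17 (SE, adjusted p = 3.44e-06), where the list had a median of 0.58. Its signal was low, 4.84 ± 0.48 in RMVs and 3.78 ± 0.26 in RT (SD, n = 6), and the change fell short of 2-fold after quantile normalization (0.47) and without RMV replicate 2 (0.89), RMV replicate 5 (0.99) or RT replicate 6 (0.98). Over BT, Gjc3 and Panx2 were lower in BMVs, and 2 of 12 is near the 10.5% of all genes. Gjc3 (Cx29), a connexin of myelinating glia in rodents, had 7.05, 7.57 and 7.98 as its lowest, median and highest signals in BMVs, against 9.42, 9.47 and 9.86 in BT, a change of -1.99 ± 0.12 (adjusted p = 1.29e-14). In RMVs they were 6.68, 6.96 and 7.02, against 6.05, 6.22 and 6.33 in RT, a change of 0.71 on the deposited scale that was 0.08 after quantile normalization and -0.22 after centring on reference genes. Panx2, a pannexin of the central nervous system, averaged 7.74 ± 0.10 in BMVs, against 9.88 ± 0.18 in BT, a change of -2.14 (adjusted p = 2.20e-18), and 7.94 ± 0.05 in RMVs, against 8.62 ± 0.20 in RT. The change in retina was -0.68 on the deposited scale, and Panx2 was lower there under all 3 scalings, with -1.16 after quantile normalization, -1.33 after centring on array medians and -1.61 after centring on reference genes.

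Between tissues, Gjc3, Gjb1 (Cx32), another connexin of myelinating glia, and Panx2 were lower in RT than in BT, with -3.35, -1.89 and -1.26. For Panx2 this change was under 2-fold after quantile normalization (-0.96) and after centring on reference genes (-0.94). On the deposited scale 3 of 12 were thus lower in RT, where 11.1% of all genes were lower. Gjb1 was also lower in RMVs than in BMVs, with -1.26 (adjusted p = 7.90e-12), 1 of 12 where 5.25% of all genes were lower. All 7 oligodendrocyte markers were lower in RT than in BT and 6 of 7 lower in RMVs than in BMVs, with medians of -3.94 and -2.12, and 5 of 7 were lower in BMVs than in BT. Gjc3 and Panx2 differed in enrichment between the organs by 2.70 (adjusted p = 2.13e-13) and 1.46 (adjusted p = 6.40e-11), 2 of 12 where 10.4% of all genes were higher. The other 8 genes were called in no comparison on the deposited scale. Their changes ran from -0.17 to 0.75 in RMVs over RT and from 0.08 to 0.88 in BMVs over BT. Signs of such small changes turned with the scaling: of the 12 genes, 10 were above 0 for RMVs over RT and 9 for BMVs over BT on the deposited scale, but 5 and 2 after quantile normalization.

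**Figure D5:**
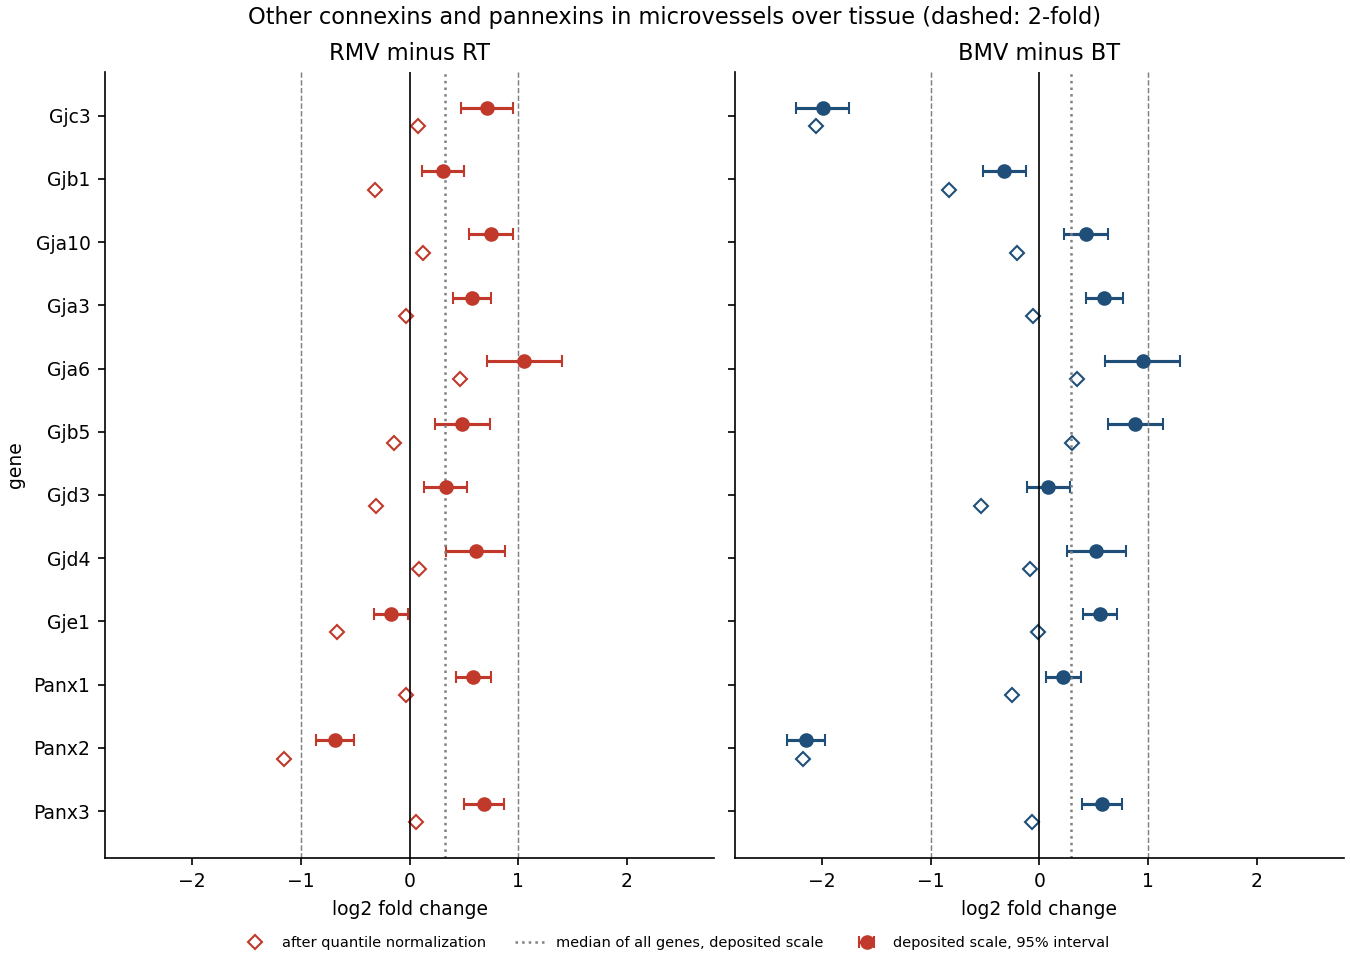
Log2 fold change of the 12 other connexins and pannexins in RMVs over RT (left) and BMVs over BT (right), on the deposited scale with 95% intervals (filled) and after quantile normalization (open), with dashed lines at 2-fold and a dotted line at the median of all genes. Gjc3 and Panx2 lie at about -2 in BMVs over BT, and most of the others shift to about 0 or below after quantile normalization.

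Of 12 genes for partners of gap junction proteins, 3 were higher and 1 lower in RMVs over RT, and 4 higher and 2 lower in BMVs over BT, with medians of -0.01 and 0.27. Over all genes 10.3% were higher and 0.947% lower in the retina, and 16.3% and 10.5% in the brain, so the 2 of 12 lower in BMVs are near the share of all genes. After quantile normalization these counts were 3 and 1 in the retina and 4 and 1 in the brain. Tjp1, which encodes the connexin-binding scaffold ZO-1, was higher in both, with 1.17 (adjusted p = 1.64e-13) and 1.62 (adjusted p = 3.26e-17). Cdh5, the endothelial cadherin, had 3.98 and 4.21. Src, a kinase that phosphorylates Cx43, was lower in RMVs than in RT with -1.19 and had -0.89 in BMVs over BT, under 2-fold. Ccn3, whose product binds Cx43, was higher in RMVs than in RT with 1.60 but lower in BMVs than in BT with -1.66, a difference in enrichment of 3.26 (adjusted p = 2.01e-15). Cav1, the caveolar protein that associates with Cx43, had -0.07 in RMVs over RT (adjusted p = 0.378) but was higher in BMVs than in BT with 3.16, a difference of -3.23 (adjusted p = 1.63e-18).

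The genes closest in pattern to each connexin were found by the root mean square (RMS) difference over the 24 arrays, after each gene was centred on its own mean. For Gja4 they were Ndufa4l2, which is also on the pericyte marker list (RMS difference 0.17), the basement membrane gene Nid1 (0.19) and the transcription factor gene Foxs1 (0.20), against a span of the group means of Gja4 of 3.87. For Gja5 they were Abi3bp (0.20), Zc3hav1 (0.21) and the laminin gene Lamc3 (0.21).
For Gja1 the closest genes were farther away: Chst15 (0.51), Hsd11b1 (0.53) and Arap2 (0.53), with a span of 4.34. In RT these ran from 5.87 to 6.60, 5.60 to 6.37 and 4.28 to 4.79, while Gja1 ran from 6.53 to 8.90. For Gjb6 they were Bcas1 (0.24), a gene of oligodendrocytes, Grb14 (0.26) and Mical2 (0.26), and for Gjb2 Hspb8 (0.19), Shank3 (0.23) and Cyb5a (0.24). For Gjd2 they were Pcbp3 (0.18), Qpct (0.18) and Gtf2f2 (0.22). The arrays form 4 groups that differ in cell makeup, so a small difference describes the level over the groups and nothing of shared control.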

How the data were processed

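RMVs, RT, BMVs and BT were measured on 6 arrays each, all assigned to group and replicate number by their labels. Per the labels, RNA was amplified from a small input and the authors normalized the arrays in Affymetrix Expression Console 4.0. The deposited values are log2 signals of 36685 transcript clusters (1.84 to 14.35). The normalization and summarization method is not given in the sources used here, and the values were used as deposited. The files hold no detection calls and no scan dates, so low signals were not separated from background and scan batches were not tested.

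Of the clusters, 18511 were paired with a single gene symbol, 575 with several (left out) and 17599 with none. Symbols were updated through Entrez identifiers for 18394. The cluster with the highest mean per gene was kept, which gave 18166 genes. limma 3.58.1 in R 4.3.3 fitted all 4 groups in a single model without a replicate block (prior degrees of freedom 5.73). Tests were two-sided with Benjamini-Hochberg adjustment over all genes and thresholds of 2-fold and 0.05. The script was tested on simulated data. Within groups, arrays correlated at 0.988 to 0.994 and none were duplicates. The number of arrays limits the precision.

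The members, gene lists, alternatives and naming rule were chosen with earlier results of these data known. Named are all members, other family members past both thresholds, up to 4 partners with the largest change per microvessel contrast, and the 3 genes closest in pattern to each member. Marker lists are given by counts and summed level. The examples Rpe65, Gfap, Slc4a4, Fgfr3, Aldoc, Aqp4, Slc1a3, Gnat1, Calb1, Ptgds, Slc6a13 and Dcn were chosen after their values were seen. Alternatives were quantile normalization, centring on array medians or reference genes, other choices of cluster, filters on low signal, the replicate block, other variance settings, a fit of the compared groups alone, and leaving out arrays. Promoter windows come from RefSeq (GRCr8), with 6 of 7 members matched.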

Additional observations from a re-analysis of the deposited data

Results flagged for a closer look

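Gja1 in RT replicate 5 lay far above the other RT arrays, at 8.90 against 6.53 to 7.19, a gap of 0.721 of the range of the group. In the same array 9 of 10 RPE markers were the highest of the RT arrays. Gjb2 in RT replicate 2 stood apart by 0.685 of the range (5.93 against 5.51 to 5.64) and Gjd3 in the same array by 0.651 (6.11 against 5.38 to 5.63), while Gje1 in BT replicate 6 was low by 0.731 (3.04 against 3.34 to 3.45). These are 4 of 72 groups of 6 arrays looked at, and chance alone gives about 1 in 20.

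The change in microvessels over tissue differed between retina and brain by the test of the difference itself for 5 genes. The change in RMVs over RT exceeded that in BMVs over BT for Gja1 by 2.35, for Gjb6 by 2.37, for Gjc3 by 2.70 and for Panx2 by 1.46, and for Gja5 the difference was -1.72. Among the first 4, Gja1 was higher in RMVs than in RT. Gjb6, Gjc3 and Panx2 were lower in BMVs than in BT, with -1.79, -1.99 and -2.14. In retina Gjb6 and Gjc3 passed 2-fold in neither direction and changed sign with the scaling, and Panx2 had -0.68.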

How the results depend on the processing

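For the 6 connexins in 5 contrasts, leaving out each array in turn changed no call and no sign (720 of 720 values). An array outside a contrast cannot move the change in it, so part of these values could differ only in adjusted p. Of the values under the other settings, including the setting without both retinal arrays numbered 5 that was chosen after seeing the data, 329 kept their sign and call. The others all came from the 3 scalings. The other choices of cluster, the filters and the replicate block left the changes of the connexins they kept as they were. Those settings thus varied only the adjusted p. For Gja5 in RMVs over RT the call was lost, with 0.56 after quantile normalization, 0.52 after centring on array medians and 0.23 after centring on reference genes. For Gjd2 a call of lower was gained in BMVs over BT with -1.03, -1.15 and -1.15, and in RMVs over RT with -1.16 after centring on reference genes. Signs turned for Gjb6 in RMVs over RT (-0.056, -0.062 and -0.35), for Gja4 in RT over BT (-0.10 after quantile normalization and -0.23 after centring on medians), and, after centring on reference genes, for Gjb2 in RMVs over RT (-0.022) and for the difference in enrichment of Gjb2 (-0.048) and Gjd2 (-0.010). The number of connexins lower in BMVs over BT became 2 under each scaling, and that in RMVs over RT became 1 with reference genes. Without genes below the median of mean signal, which removes members, 2 were higher in RMVs over RT, 2 lower in RT over BT, 1 was higher in BMVs over BT, 2 were lower in RMVs over BMVs and 0 lower in the difference of enrichment. The scalings shift all genes: in RMVs over RT the median change was 0.33 as deposited and -0.15, -0.32 and -0.60 under them, in BMVs over BT 0.30 and -0.15, -0.31 and -0.31.

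Among the other family members, signs turned for Gjb1 in RMVs over RT (-0.31, -0.33 and -0.62), for Gjc3 there (-0.22, reference genes), for Panx2 in RMVs over BMVs (-0.10, median centring), and for Gja6, with quantile normalization, in RMVs over BMVs (-0.00064) and RT over BT (-0.12), with median centring in RT over BT (-0.055), and in the difference of enrichment with reference genes (-0.22) and without RMV replicate 2 (-0.060, and up to 0.19 without BMV replicate 5). Gja6 lost its call in RMVs over RT without RMV replicate 2 (0.89), without RMV replicate 5 (0.99), without RT replicate 6 (0.98) and under all 3 scalings (0.47, 0.41 and 0.13), and it passed 2-fold in BMVs over BT without BMV replicate 1 or BMV replicate 2 (1.01 each). Panx2 was lower in RMVs over RT under the 3 scalings (-1.16, -1.33 and -1.61), and its change in RT over BT was -0.96 with quantile normalization and -0.94 with reference genes, under 2-fold. Over all genes, quantile normalization gave 992 higher and 1815 lower in RT over BT and 1392 higher and 949 lower for the difference of enrichment, and the counts of the other contrasts stand in the report.

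The labels do not say that a replicate number marks an individual rat. Deviations of arrays with the same number correlated at -0.09 to 0.15. These correlations exceeded 0.1 in 2 of 6 pairs of RMVs and RT, 1 of 6 of BMVs and BT, 1 of 6 of RMVs and BMVs, and 0 of 6 of RT and BT. The best match was the array of the same number in 5, 3, 2 and 1 of 6 pairs. RMVs and RT thus tended to match by number, with all correlations at 0.036 to 0.150. A pairing by number over all groups was neither shown nor excluded. With the replicate number as a block no call of a connexin changed, with Gja1 in RMVs over RT at 2.05 (adjusted p = 7.89e-08), and 1873 genes were higher and 172 lower in RMVs over RT, as without it.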
